A study of Bos taurus with 48 samples.

Results

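Liver of calves that drank milk replacer without limit was compared with liver of calves on a reduced ration of it. The 12 libraries were those with liver in the tissue field and either diet in the diet field, of 47 libraries with counts in the series, which also holds mammary parenchyma and mammary fat pad. Unlimited calves (6 libraries, numbered 3, 6, 7, 9, 11 and 15 in their titles) were offered milk replacer ad libitum in 3 meals of 30 minutes a day. Restricted calves (6 libraries, numbered 4, 5, 8, 10, 13 and 16) received a reduced daily amount of milk replacer. Liver of 4 control calves, fed a standard ration by the dairy cattle nutrient requirements, served as an outside reference (libraries 1, 2, 18 and 21). All animals were dairy calves of the species Bos taurus, and the labels give no age. Ribosomal RNA was removed from total RNA before sequencing as paired reads of 150 cycles. Nothing in the labels states that every library came from its own calf, so each p-value reflects spread among libraries, part of which may be technical.

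The liver receives the nutrients absorbed from milk through the portal vein. Its hepatocytes turn surplus amino acids into urea, store or release glucose, make and burn fatty acids, and secrete most plasma proteins, and a small set of very abundant hepatocyte transcripts takes up much of the RNA of the organ. A shift of these transcripts therefore moves the share left for all others. The genes carry Ensembl identifiers without names, so pathways and cell type markers could not be followed by name, and the comparison was described through classes of genes set by tissue.

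Liver-enriched genes were those with a mean log2 CPM (counts per M gene counts, on a log2 scale) in control liver at least 2 above the mean of both mammary tissues, that is at least 4-fold. Control liver set the class so that none of the 12 compared libraries decided its members. There were 1332 such genes, and 1234 of them passed the filter on low counts in this comparison. They took 30.3% to 48.1% of all gene counts in the 12 libraries, against 1.34% to 1.57% in parenchyma and 1.24% to 1.44% in fat pad of the same diets. All 12 libraries were thus far from both mammary tissues and had a liver profile, while single defining markers could not be looked up.

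Gene counts totalled 9.51 to 16.6 M in unlimited and 12.9 to 17.4 M in restricted liver. The share of uniquely placed reads that fell in genes averaged 30.9% ± 4.94 for unlimited calves against 36.5% ± 4.22 for restricted calves (SD, n = 6 each), with a two-sided exact permutation p of 0.0649 and an adjusted p of 0.162 over 5 library measures. Unlimited libraries 3 and 6 had the lowest assigned shares of the 12, 25.5% and 26.0%. They also had the highest TMM factors, 0.932 and 0.942, against 0.679 to 0.799 in the other 10 (TMM is edgeR's scaling for differences in RNA composition). Mean TMM factors were 0.820 ± 0.0942 and 0.717 ± 0.0566 in unlimited and restricted liver (exact permutation p = 0.0455, adjusted p = 0.162).

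Liver-enriched genes made up, on average, a smaller part of the counts in unlimited than in restricted liver. In restricted libraries they took 39.9%, 42.2%, 46.0%, 46.1%, 47.1% and 48.1% of gene counts (numbers 8, 16, 5, 10, 13 and 4). In unlimited libraries the shares were 30.3%, 32.1%, 39.1%, 39.9%, 41.5% and 41.9% (numbers 3, 6, 15, 9, 7 and 11). Libraries 3 and 6 stood well below all the others, unlimited library 15 was just below restricted library 8, and unlimited libraries 9, 7 and 11 lay between restricted libraries 8 and 16. The means were 37.5% ± 5.02 and 44.9% ± 3.15 (SD, n = 6 each), a gap of 7.43 percentage points. Without libraries 3 and 6 the unlimited mean was 40.6% ± 1.31 (n = 4) and the gap 4.27 points, or 57.5% of its first size. Because these libraries were the lowest, leaving them out could only make the gap smaller. Control liver spanned 33.7% to 47.6% and so covered most of both diets. The class genes were not traced to a cell type. In bulk tissue, cell make-up, RNA per cell and library traits such as the assigned share cannot be told apart, and no cause was tested.

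**Figure D1:**
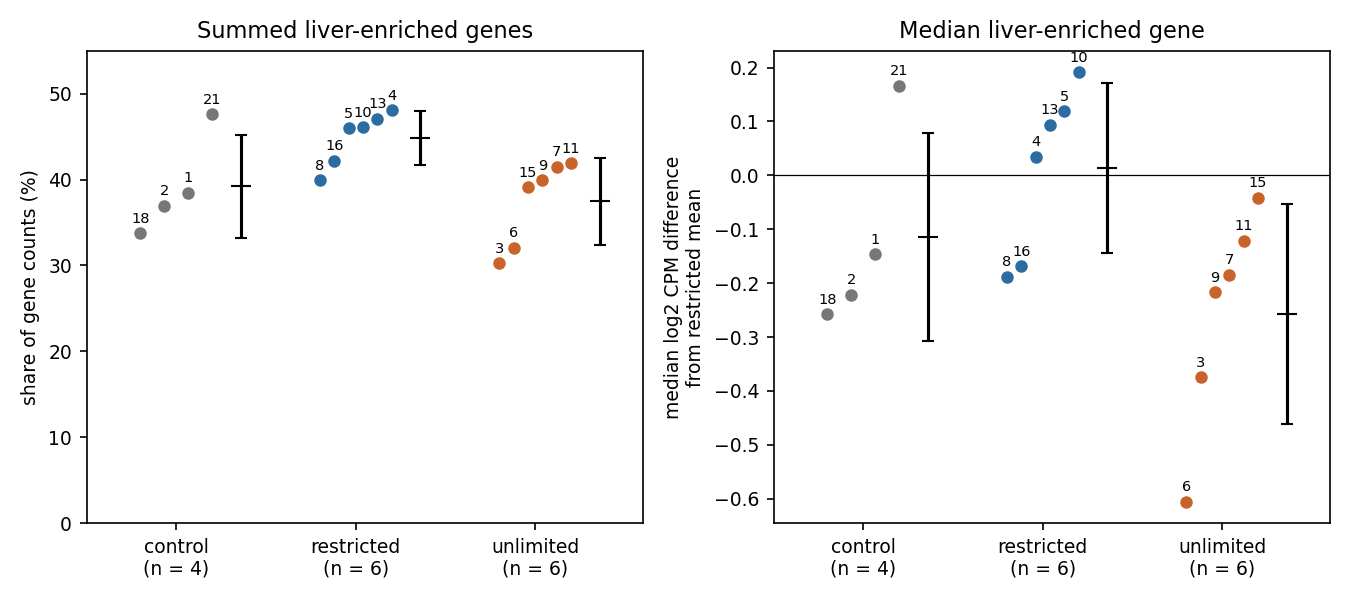
Share of gene counts taken by the 1332 liver-enriched genes (left, in percent) and the median of the 1234 tested ones as a log2 CPM difference from the restricted mean (right), with 1 point per library, labelled by its title number, and the mean with SD beside each diet. On the right, each restricted library is set against the mean of the other restricted libraries. Unlimited libraries 3 and 6 are lowest in both panels, at 30.3% and 32.1% and at -0.37 and -0.61. The other 4 unlimited libraries lie between -0.22 and -0.04 on the right.

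The typical liver-enriched gene was also lower. The median log2 fold change, unlimited minus restricted, was -0.21 over the 1234 liver-enriched genes tested and 0.02 over all 14030 genes. Of the class, 820 genes or 66.5% lay below 0, against 47.0% of all genes. No test was run on the class as a whole. At an unadjusted edgeR p under 0.05, 296 genes of the class were lower, which is 24.0% of it, against 7.77% of all genes tested. In the other direction 57 were higher, 4.62% of the class against 6.37% of all genes. No gene of the class passed at an adjusted p under 0.05 in edgeR.

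Whether this rested on unlimited libraries 3 and 6 was examined by fitting the remaining 4 unlimited and 6 restricted libraries. The median of the class, then 1246 genes, was -0.18, and that of all 14237 genes tested was -0.01. The part of the class below 0 was 67.3% against 66.5% with all libraries. Over all genes tested it was 51.3% without the pair and 47.0% with all libraries. Of the 1234 genes tested in both fits, 731 were below 0 in both, 89 only with libraries 3 and 6 and 102 only without them. At an unadjusted p under 0.05, 221 class genes (17.7%) were lower, against 6.05% of all genes, and 192 of the first 296 were among them. Another 71 were higher (5.70%, against 5.41% of all genes). The share of class genes below 0 was thus about the same without these libraries, while that of all genes was nearer to it. The fitted class median was slightly nearer to 0. The class median minus that of all other genes went from -0.24 to -0.18. Averaged over libraries, the gap in the class median between the diets went from 0.27 to 0.15 log2 units, so 57.1% of it was left, about as much as of the gap in summed counts. Libraries 3 and 6 had the lowest class medians, so leaving them out could only make this gap smaller. The count of low p-values was smaller as well. The second fit has fewer libraries, which by itself lowers the count of low p-values.

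**Figure D2:**
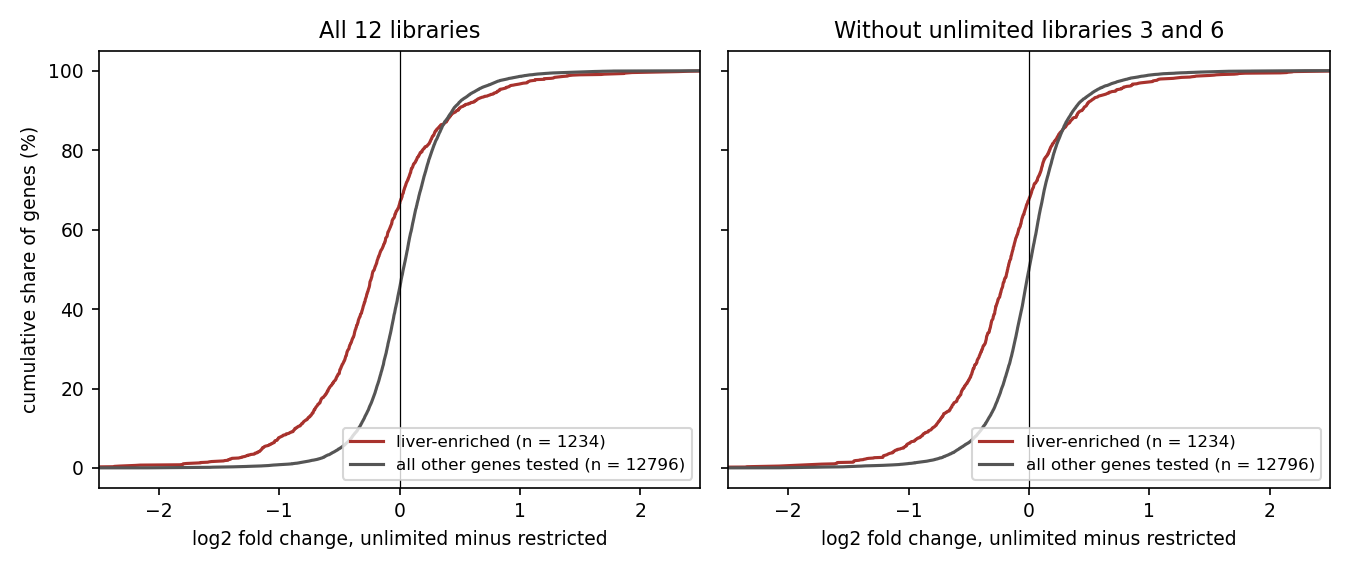
Cumulative share of genes (percent) by log2 fold change, unlimited minus restricted, for the liver-enriched and all other genes tested with all 12 libraries, fitted with those libraries (left) and without unlimited libraries 3 and 6 (right). In both panels the liver-enriched curve lies to the left around 0, where about the same part of these 1234 class genes, 66.5% and 67.5%, is below 0.

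Seen library by library, all 6 unlimited libraries had a class median below the restricted mean, and libraries 3, 6 and 9 lay below every restricted value given here. The median log2 CPM difference from the restricted mean was -0.61 in library 6, -0.37 in library 3, -0.22 in library 9, -0.18 in library 7, -0.12 in library 11 and -0.04 in library 15. Each restricted library, set against the mean of the other 5, lay at -0.19 (number 8), -0.17 (16), 0.03 (4), 0.09 (13), 0.12 (5) or 0.19 (10). Libraries 3 and 6 were well below the lowest restricted library, library 9 was slightly below it, and libraries 11 and 15 were within that group's range. Leaving a restricted library out of its own reference spreads these values more widely than the mean of all 6 would. Library 7, close to restricted library 8, can therefore not be placed inside or outside the restricted range. Over genes outside the class the medians of all 12 libraries lay between -0.05 and 0.04. TMM scaling centres the bulk of genes, most of which are outside the class, so medians near 0 there are largely set by the scaling. Control libraries ranged from -0.26 to 0.17.

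With all libraries, the median difference per gene was graded by how abundant a liver-enriched gene was in control liver, and leaving out libraries 3 and 6 lessened it at the abundant end. Among 265 class genes whose mean log2 CPM in control liver reached 8, the median log2 fold change was -0.37, and 81.9% were below 0. Without libraries 3 and 6 it was -0.23 with 77.0% below 0. For the 432 genes between 5 and 8 the medians were -0.23 with all libraries and -0.15 without the pair. The 343 genes between 2 and 5 went the other way, from -0.06 to -0.15. Class genes with a control level under 2 were not binned. Genes outside the class were graded as well, over a narrower range, with medians of 0.05, -0.01 and -0.06 in the same 3 bins with all libraries. Those at 8 or more (359 genes) had medians of -0.06 and, without the pair, -0.02, much nearer to 0 than class genes of that level. Of these outside genes, 60.2% were below 0 with all libraries and 52.4% without the pair. Among class genes of 8 or more, 38.5% were lower at an unadjusted edgeR p under 0.05, and 27.2% without the pair. Equally abundant genes outside the class had 14.5% and 9.19%. With all libraries this share rose with level in both sets, from 13.4% in the lowest bin of the class and 4.59% in that of other genes.

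**Figure D3:**
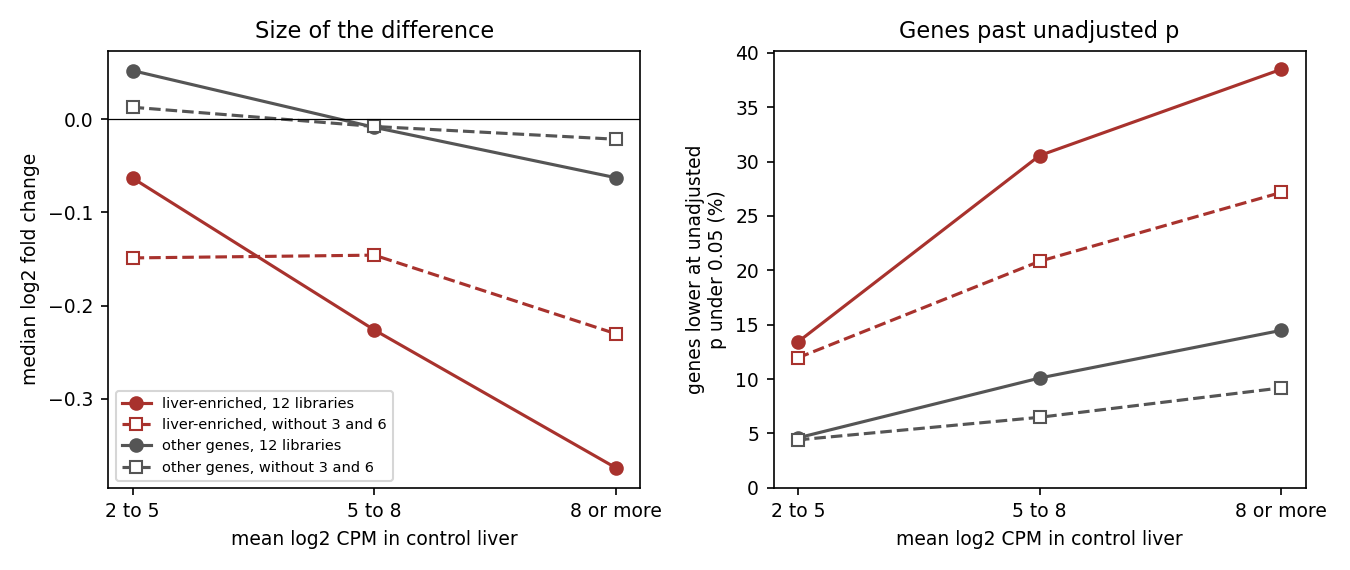
Median log2 fold change (left) and the percent of genes lower at an unadjusted edgeR p under 0.05 (right) by mean log2 CPM in control liver, for liver-enriched and other genes, with all 12 libraries and without unlimited libraries 3 and 6. In the most abundant bin the liver-enriched median is -0.37 with and -0.23 without the pair, and other genes stay at -0.06 and -0.02.

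The summed counts showed no such grading by abundance rank. The 10 class genes of highest level in control liver took 16.7% ± 1.24 of gene counts under restriction and 14.1% ± 2.63 under unlimited feeding (SD, n = 6 each), and the gap of 2.67 points was 16.0% of the restricted level, of which 43.7% was left without libraries 3 and 6. Those ranked 11 to 100 took 16.7% ± 1.60 and 13.3% ± 1.77, a gap of 20.2% of the restricted level with 67.3% of it left. All further class genes took 11.4% ± 0.490 and 10.1% ± 0.945, a gap of 12.1% with 60.5% left. In libraries 3 and 6 the first 10 took 10.1% and 12.03%, against 13.6% to 16.6% in the other 4 unlimited libraries. The pair was also the lowest for the further ranks, so leaving it out could only make each of these gaps smaller.

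Genes with a weak and with a strong preference for liver had similar medians once libraries 3 and 6 were left out. The 325 class genes at least 6 log2 units above both mammary tissues had a median log2 fold change of -0.32 with all libraries and -0.18 without the pair. For the 236 genes between 4 and 6 the medians were -0.16 and -0.17. For genes between 2 and 4 they were -0.17 in both fits (673 and 685 genes). Without the pair, the share lower at an unadjusted edgeR p under 0.05 still rose with preference, from 14.3% to 18.2% and 24.6%. The share higher rose too, from 4.38% to 5.51% and 8.62%. Gene by gene, libraries 3 and 6 were compared with the rest as a description only. They already had the lowest class shares, so these counts give no separate support. Both libraries were below all other 10 libraries for 324 of the 1234 class genes, 26.3% against 13.4% of all genes. They were above all others for 33 class genes, 2.67% against 5.78% of all genes.

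Genes low in liver and high in both mammary tissues leaned towards unlimited liver. This mammary-enriched class held 1056 genes at least 4-fold higher in parenchyma and fat pad than in control liver, and took under 2% of gene counts in every liver library. Its share was 0.367%, 0.396%, 0.406%, 0.450%, 0.532% and 0.733% in restricted libraries 4, 13, 5, 10, 16 and 8. It was 0.549%, 0.560%, 0.668%, 0.682%, 0.965% and 1.12% in unlimited libraries 7, 15, 3, 11, 6 and 9. Every unlimited library was above 5 of the 6 restricted libraries, and restricted library 8 lay within the unlimited range. The means were 0.758% ± 0.234 and 0.481% ± 0.136 (SD, n = 6 each), and 0.728% ± 0.270 for unlimited liver without libraries 3 and 6 (n = 4), which left 89.3% of the difference. Only 488 of the 1056 genes passed the filter on low counts, and a gene can pass through its higher group alone, so the counts of single genes are not given for this class. The 820 genes enriched in fat pad alone took 0.287% ± 0.0502 and 0.231% ± 0.0518, and the 402 enriched in parenchyma alone 0.408% ± 0.0414 and 0.406% ± 0.0833, in unlimited and restricted liver. Which cell types in liver carry these transcripts was not tested.

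Gene by gene, 2 of 14030 genes passed at an adjusted p under 0.05 in edgeR's quasi-likelihood test, which is 0.0143% of those tested, and both fell with unlimited feeding. Neither belonged to the liver-enriched class, and the mean level of both was higher in fat pad than in liver, a difference not tested here. ENSBTAG00000001303 was at 23.7, 39.5, 42.1, 43.8, 48.0 and 51.7 CPM in restricted libraries 8, 13, 16, 5, 10 and 4. In unlimited libraries 6, 3, 15, 7, 11 and 9 it was at 7.00, 11.4, 14.5, 15.1, 16.8 and 20.2 CPM. The groups did not overlap, and libraries 3 and 6 were the lowest of all. Its log2 fold change was -1.53 ± 0.22 (SE, edgeR adjusted p = 0.033) and, without libraries 3 and 6, -1.32 ± 0.20 (edgeR adjusted p = 0.0925). It also did not pass when unlimited library 3, 7 or 15 or restricted library 4, 5, 10, 13 or 16 was left out alone (edgeR adjusted p from 0.0627 to 0.14). Its level was 31.9 ± 7.82 CPM in control liver (SD, n = 4), 57.6 ± 12.3 CPM in fat pad and 12.5 ± 3.51 CPM in parenchyma of restricted and unlimited calves (n = 12 each).

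ENSBTAG00000012128 was at 27.6, 63.9, 65.8, 70.5, 77.8 and 91.7 CPM in restricted libraries 8, 4, 5, 13, 16 and 10. In unlimited libraries 7, 15, 11, 3, 9 and 6 it was at 18.4, 19.1, 19.8, 21.6, 25.9 and 27.6 CPM. Restricted library 8 and unlimited library 6 met at 27.6 CPM, and the other restricted libraries were all above 60 CPM. The log2 fold change was -1.55 ± 0.22 (SE, edgeR adjusted p = 0.033). It was -1.67 ± 0.27 without libraries 3 and 6, of which number 6 was the highest of its group for this gene (edgeR adjusted p = 0.126). Its call was lost without the same single libraries as that of the first gene, at the same adjusted p-values, and kept without restricted library 8 (edgeR adjusted p = 0.000185). Control liver was at 58.4 ± 19.6 CPM (SD, n = 4), nearer to restricted liver, and fat pad of restricted and unlimited calves at 170 ± 60.0 CPM (n = 12). In DESeq2 both genes passed with all 12 libraries (adjusted p = 3.66e-07 each) and without the pair (adjusted p = 1.88e-06 for ENSBTAG00000001303 and 1.11e-06 for ENSBTAG00000012128).

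No gene passed in the upward direction in edgeR. The 2 genes of lowest p that were higher in unlimited liver also showed no overlap between the diets. ENSBTAG00000018050 was at 36.6, 46.7, 47.4, 62.5, 65.4 and 69.6 CPM in unlimited libraries 3, 9, 11, 7, 15 and 6, and at 19.6 to 33.9 CPM in restricted liver. Its log2 difference was 1.10 ± 0.18 (SE, edgeR adjusted p = 0.058, DESeq2 adjusted p = 3.17e-05) and 1.08 ± 0.17 without libraries 3 and 6 (edgeR adjusted p = 0.0925). ENSBTAG00000045824 was at 11.0, 11.7, 13.8, 15.8, 19.5 and 19.7 CPM in unlimited libraries 11, 7, 15, 9, 3 and 6, and at 6.23 to 9.57 CPM in restricted liver. Here libraries 3 and 6 were the highest, and the log2 difference was 1.02 ± 0.20 with them and 0.76 ± 0.18 without them (edgeR adjusted p = 0.0709 and 0.19, DESeq2 adjusted p = 0.000448 and 0.0145). Both genes passed in edgeR without unlimited library 11 (adjusted p = 0.037 and 0.04) and without restricted library 8 (adjusted p = 0.00673 and 0.017). Restricted library 8 was the one nearest to the unlimited range for all 4 genes. Control liver was at 32.7 ± 12.9 CPM for ENSBTAG00000018050 (SD, n = 4), nearer to the restricted mean of 26.1 than to the unlimited mean of 54.7. For ENSBTAG00000045824 it was at 14.1 ± 3.74 CPM (n = 4), nearer to the unlimited mean of 15.3 than to the restricted mean of 7.70.

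More genes lay just beyond the threshold, and most of them were lower in unlimited liver. At an adjusted edgeR p under 0.1 there were 62 genes (0.442%), 57 lower and 5 higher, and 29 of the 62 were liver-enriched. Without libraries 3 and 6 there were 3. Counted by unadjusted p under 0.05, the fit with all libraries had 1984 genes and the fit without the pair 1631. Over all tested genes 71 had every unlimited library below every restricted one (0.506%), and 26 the reverse (0.185%). Among liver-enriched genes these numbers were 20 and 1 of 1234, or 1.62% and 0.0810%. Without the pair, 141 genes were lower and 161 higher with no overlap (0.99% and 1.13%), and in the class 34 and 10 of 1246, or 2.73% and 0.803%. A smaller group avoids overlap more easily, so these counts cannot be compared directly with those of all libraries.

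The number of called genes depended on the tool and on which libraries were in the fit. In edgeR it was 0 without libraries 3 and 6, and also without each of several single libraries. No other pair of libraries was left out. DESeq2 called 263 lower and 93 higher genes (1.87% and 0.663%), of which 112 and 11 were liver-enriched. The limma voom test with quality weights called 84 lower and 26 higher (0.599% and 0.185%), 43 and 3 of them liver-enriched, and 104 of its 110 genes were also called by DESeq2. Without libraries 3 and 6, DESeq2 called 151 lower and 66 higher genes (1.06% and 0.464%), 72 and 10 of them liver-enriched, and 150 of these 217 were among its first 356. The limma voom test then called 2 lower and 3 higher genes (0.014% and 0.0211%). Without restricted library 8, edgeR called 166 lower and 71 higher genes (1.17% and 0.501% of 14184), with 74 and 10 liver-enriched. The other tools also called more genes without it, DESeq2 498 lower and 354 higher (3.51% and 2.5%) and limma voom 338 lower and 143 higher (2.38% and 1.01%), of which 173 and 38, and 133 and 16, were liver-enriched. Leaving out that library together with unlimited libraries 3 and 6 gave 250 calls in edgeR, 157 lower and 93 higher (1.11% and 0.658%), and 168 of them were among the 237 called without library 8 alone. Of the 250, 71 lower and 15 higher genes were liver-enriched, and the class median was -0.21. Library 8 had an assigned share of 29.2%, the lowest of the restricted group. Its class share of 39.9% and its mammary-enriched share of 0.733% both lay in the unlimited range. Leaving out the restricted library nearest to unlimited liver in these shares widens the gap between the diets. The larger counts without it are therefore no added support for a diet difference.

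**Figure D4:**
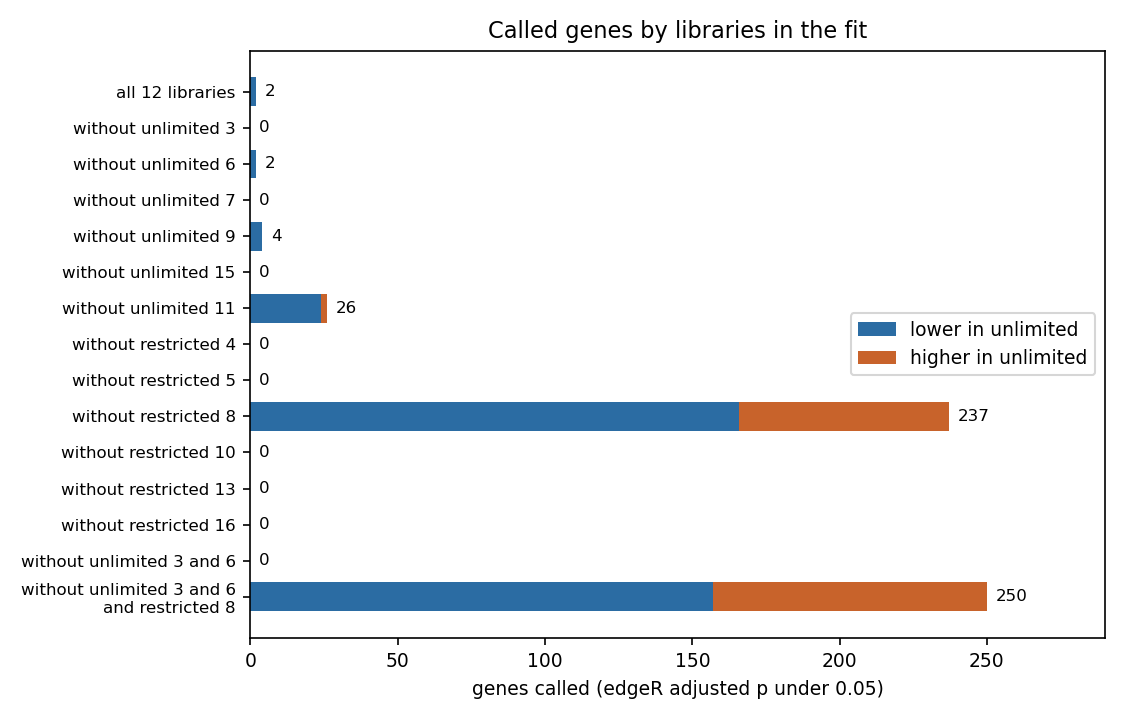
Genes called by edgeR at an adjusted p under 0.05, lower or higher in unlimited liver, for all 12 libraries, with each library left out in turn, and with unlimited libraries 3 and 6 left out alone or together with restricted library 8. The count is 237 without restricted library 8 and 250 without that library and the pair, and at most 26 in each of the other fits shown.

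Across the 12 libraries a lower share of assigned reads tended to go with a lower liver-enriched share, with exceptions. The strength of this relation was not tested. Libraries 3 and 6 were lowest in both, and restricted library 8 was lowest of its group in both. Among the exceptions, restricted library 16 had the highest assigned share, 40.5%, and the second lowest class share of its group. Unlimited library 11 had an assigned share of 28.8% and the highest class share of its group. With that share as a covariate, edgeR called 0 genes of 14030, with 717 at an unadjusted p under 0.05, and the class median was -0.16 with 67.2% of the class below 0. With the covariate and without libraries 3 and 6 the median was -0.15 and 66.2% were below 0, again with 0 genes called and 1020 at an unadjusted p under 0.05. The class median stayed below 0 in both fits but was nearer to 0 than without the covariate (-0.21 and -0.18). Of all genes tested, 48.6% and 49.4% were below 0. The assigned share was lower on average in unlimited liver, so these fits cannot separate it from diet. With the covariate and all libraries, the log2 fold changes were -1.44 for ENSBTAG00000012128, -1.19 for ENSBTAG00000001303, 0.97 for ENSBTAG00000018050 and 0.78 for ENSBTAG00000045824, and no adjusted p was under 0.9. The class median minus the median of other genes was between -0.26 and -0.18 under every scaling, tool, filter and covariate tried with all 12 libraries. It was between -0.21 and -0.16 under those tried without the pair. A change of scaling moves class and other genes by nearly the same amount, so this difference could hardly respond to it.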

How the data were processed

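The deposited tables hold HTSeq read counts per gene for 27607 genes, with 5 summary entries that were kept out of library sizes and tests, and were used as deposited. Per the submitters' processing notes, the tools were FastQC, STAR 2.7.8, HTSeq 1.99.2 and DESeq2, and the build was ARS-UCD1.2. The sources used here do not give strand or multi-read settings, so overlapping genes and near-identical copies are uncertain. Of the identifiers, 0 were found in the RefSeq gene table (another assembly), so the gene lists and cell type markers drawn up for liver could not be run, and at most 2 identifiers are printed in each direction, chosen by lowest p among genes whose mean log2 CPM was at least 1.

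Groups came from the tissue and diet fields. Genes were tested with edgeR 4.0.16 in R 4.3.3 on the 12 libraries (TMM factors, filterByExpr with minimum count 10 and minimum total 15, robust quasi-likelihood F test), with calls where the Benjamini-Hochberg adjusted p was under 0.05. The edgeR fit of all 12 libraries was first checked on simulated counts. Other tools and fits were not checked in this way. CPM levels used TMM factors over 47 libraries, and log2 CPM a prior count of 2. Standard errors came from the F statistic. Alternatives were DESeq2 1.42.0, limma 3.58.1 voom with quality weights, other scalings, no filter, the assigned share as a covariate, control liver in the fit, other definitions of the class, and libraries left out. The fits without libraries 3 and 6 that used limma, the covariate or no restricted library 8, and the DESeq2 and limma fits without library 8 alone, were added after the data were seen. The comparison, classes and lists were chosen with earlier results of these data known.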

Additional observations from a re-analysis of the deposited data

Results flagged for a closer look

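Of 36 groups of library measures, class values and gene levels in liver of the 3 diets, 1 had a library far from the rest, where chance gives about 1 in 20. The 10 most abundant genes of restricted library 16 took 19.0% of its gene counts, against 21.1% to 22.03% in the other restricted libraries. Libraries 3 and 6 were not singled out by this rule, which compares 1 extreme library with its nearest neighbour and so passes over a pair.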

How the results depend on the processing

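The class median stayed negative under all 26 alternatives to the fit of 12 libraries, from -0.29 (class genes of mean log2 CPM 5 or more) to -0.05 (library size only), and from -0.24 to -0.19 with each library left out in turn. For the fit without the pair it ranged from -0.21 to -0.08 over 8 alternatives, 2 of which left out only library 3 or only library 6. Library size alone moved the median of all genes to 0.18. The split at an unadjusted edgeR p under 0.05 became 2200 higher and 502 lower, against 894 and 1090. The class then lay 0.24 below other genes, as with TMM (class minus other genes, -0.24), a difference that scaling can hardly change.

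The 2 called genes became 16 with no filter on low counts, 356 in DESeq2, 110 in limma voom with quality weights, 0 with the assigned share as a covariate and 0 without libraries 3 and 6. Without restricted library 8 it was 852 in DESeq2 and 481 in limma voom. With each library left out in turn the count ranged from 0 to 237: 237 when restricted library 8 was left out, 26, 4 and 2 for unlimited libraries 11, 9 and 6, and 0 for each of the other 8. The cause was not tested. ENSBTAG00000001303 did not pass under 10 of 22 alternatives and ENSBTAG00000012128 under 11, with log2 fold changes from -1.65 to -1.19 and from -1.71 to -1.36. The difference in the share of the 10 most abundant genes, unlimited minus restricted, was 0.0531 points with all libraries and -0.106 without libraries 3 and 6 (exact permutation, adjusted p = 0.926 and 0.886); the other 4 library measures kept their direction, and none passed. No paired analysis was possible because the unlimited and restricted liver libraries share no number in their titles. The lists of named genes were not run for want of gene names.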
